A study of Mus musculus with 54 samples.

Results

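The beta and alpha2-delta subunits of voltage-gated calcium channels are encoded by 8 mouse genes, 4 for each family, and all 8 were followed through the day in the suprachiasmatic nucleus (SCN). The genes were chosen by name, as *Cacnb1* to *Cacnb4* and *Cacna2d1* to *Cacna2d4*, and were found in the count table by Ensembl identifier. All 8 were among the 30031 genes of the table and among the 18941 that were tested, for which more than 6 of the 18 replicates had to hold 1 read or more. The SCN, the master clock of the mammalian hypothalamus, was cut out by laser-capture microdissection from male C3H/HeH mice, an inbred strain, aged 10 to 12 weeks and kept under 12 hr of light and 12 hr of darkness. Brains were taken at ZT2, ZT6 and ZT10 in the light and at ZT14, ZT18 and ZT22 in the dark, where zeitgeber time (ZT) counts hours from lights on, and polyadenylated RNA was sequenced. There were 3 biological replicates at each timepoint, and each was a pool of 5 mice, so differences between single animals could not be seen. No mouse carried a transgene and none was treated, and every sample came from the light/dark cycle, so a response to light and a rhythm that would persist in darkness cannot be told apart.

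A voltage-gated calcium channel is built around a pore-forming alpha-1 subunit. The beta subunit is an intracellular protein that binds the linker between the first and second repeats of the alpha-1 subunit, helps the channel reach the cell surface and changes its opening and closing. The alpha2-delta subunit lies outside the cell on the membrane surface, raises the number of channels at the membrane and at release sites, and is the target of gabapentin and pregabalin in its alpha2-delta-1 and alpha2-delta-2 forms. Both families serve the high-voltage-activated channels of the L, P/Q, N and R types, whereas the T-type channels do not need them. In SCN neurons, calcium entry through such channels is known to vary over the day and to link firing with the clock.

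The files list the genes as ENSMUSG00000020882 (*Cacnb1*), ENSMUSG00000057914 (*Cacnb2*), ENSMUSG00000003352 (*Cacnb3*), ENSMUSG00000017412 (*Cacnb4*), ENSMUSG00000040118 (*Cacna2d1*), ENSMUSG00000010066 (*Cacna2d2*), ENSMUSG00000021991 (*Cacna2d3*) and ENSMUSG00000041460 (*Cacna2d4*), all protein-coding. The 8 genes are spread over 7 chromosomes of GRCm38. *Cacnb1* lies at chr11:98001508-98023034, *Cacnb3* at chr15:98630840-98644529, *Cacnb2* at chr2:14603088-14987908 and *Cacnb4* at chr2:52428320-52676831. *Cacna2d1* lies at chr5:15934691-16374511, *Cacna2d2* at chr9:107399612-107529343, *Cacna2d3* at chr14:28904943-29721864 and *Cacna2d4* at chr6:119236526-119352407. The genes differ widely in size and composition: *Cacnb3* spans 13.7 kb and *Cacna2d3* spans 816.9 kb. The GC content of the transcript, which is returned to beside the results, was 61.3% for *Cacnb3*, 59.7% for *Cacnb1*, 55.8% for *Cacna2d2*, 52.6% for *Cacna2d4*, 49.1% for *Cacna2d3*, 40.7% for *Cacna2d1*, 40.5% for *Cacnb4* and 39.0% for *Cacnb2*. Among 15627 genes that averaged 10 counts or more and had a known transcript, the quartiles were 45.0% and 54.4%, so *Cacnb1* and *Cacnb3* stood near the upper end and *Cacnb2*, *Cacnb4* and *Cacna2d1* near the lower end.

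RefSeq promoter windows of build GRCm38.p6, which run from 250 bases before to 50 bases after a transcript start, were at hand for 7 of the 8 genes, with 12 starts between them; *Cacna2d4* had none. The letters searched, on both strands, were the E-box CACGTG bound by CLOCK and BMAL1, the full cAMP response element TGACGTCA, its half-site TGACG, which also lies inside the full element, the D-box TTATGTAA and the GC box GGGCGG. The E-box, the cAMP response element and the D-box occurred in 0 of the 12 windows, and they occurred in 7.15%, 1.79% and 0.94% of all 32851 windows. The half-site occurred in 2 of the 12 windows, of *Cacnb2* and *Cacna2d1*, and in 20.81% of all windows. The GC box occurred in 8 of the 12 windows and in 35.66% of all windows. A match or its absence describes these letters in these windows only. The 250 bases before the start are shown for *Cacnb1*, *Cacnb3* and *Cacna2d3*. With library scaling only, the levels of *Cacnb1* and *Cacnb3* ran together and those of *Cacna2d3* ran the other way. That contrast was not kept for *Cacnb3* when genes of like GC content were centred, as given below. Each stretch runs 5′ to 3′ on the strand of the gene, from a start with no annotated exon in those 250 bases. Capitals mark the GC box.
Cacnb1, chr11:98018373-98018622, minus strand: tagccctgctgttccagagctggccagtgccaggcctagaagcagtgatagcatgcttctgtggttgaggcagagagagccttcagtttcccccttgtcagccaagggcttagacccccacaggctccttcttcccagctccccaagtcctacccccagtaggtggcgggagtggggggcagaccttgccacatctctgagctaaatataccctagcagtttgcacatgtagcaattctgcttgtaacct
Cacnb3, chr15:98632078-98632327, plus strand: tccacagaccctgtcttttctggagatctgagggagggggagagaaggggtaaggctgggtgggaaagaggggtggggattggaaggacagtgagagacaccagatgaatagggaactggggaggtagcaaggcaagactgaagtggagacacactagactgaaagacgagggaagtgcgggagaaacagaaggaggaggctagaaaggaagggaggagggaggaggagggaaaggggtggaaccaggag
Cacna2d3, chr14:29721865-29722114, minus strand: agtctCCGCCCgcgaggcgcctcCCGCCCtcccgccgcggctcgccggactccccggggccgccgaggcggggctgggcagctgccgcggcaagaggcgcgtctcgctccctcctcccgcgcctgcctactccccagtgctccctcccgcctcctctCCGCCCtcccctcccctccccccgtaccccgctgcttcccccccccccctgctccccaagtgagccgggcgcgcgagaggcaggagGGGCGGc
The *Cacna2d3* stretch holds 4 GC boxes and is 80.0% GC, and the stretches of *Cacnb1* and *Cacnb3*, both 56.0% GC, hold none. The 250 bases before the other starts of *Cacnb1* and *Cacnb3* overlap annotated exons and are not printed. They hold 5 and 3 GC boxes, at 73.2% and 70.4% GC, so the printed stretches do not set these genes apart from *Cacna2d3*.

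Each replicate held between 15412981 and 35820945 counts, with a median of 25075231, and the shallowest was ZT18 replicate C. The timepoints fell into 3 pairs of neighbours (ZT22 and ZT2; ZT6 and ZT10; ZT14 and ZT18), and for the median gene tested 77.2% of the variance among the 6 timepoint means lay between the pairs. The study names sequencing batch beside timepoint as a source of separation among its libraries, and the sample labels give no batch, so between pairs the time of day and a batch cannot be told apart. Markers of SCN neurons (8 of 10 past the time test described below) summed to between 1990 and 5920 CPM, the counts scaled to a common library size, so the dissected tissue held the labelled nucleus. Markers of other cells were present as well, and the numbers past the time test were 6 of 6 for astrocytes, 6 of 6 for oligodendrocytes, 2 of 2 for oligodendrocyte precursors, 6 of 6 for microglia, 4 of 5 for endothelial cells, 4 of 5 for neurons in general, 3 of 7 for telencephalic excitatory neurons, 3 of 8 for neighbouring hypothalamic neurons and 2 of 5 for skeletal muscle. The muscle markers summed to 336 CPM in ZT6 replicate A and to between 1.47 and 21.7 CPM in the other 17 replicates. In such bulk tissue fewer cells of a type and less RNA per cell cannot be told apart.

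Levels between genes were compared as CPM per kb of exon. The beta family was led by *Cacnb3* and *Cacnb4*, at 10.8 ± 4.88 and 10.4 ± 4.20 CPM per kb (SD, n = 18), a pair whose difference was smaller than their spread. *Cacnb1* followed at 6.50 ± 3.76 CPM per kb, and *Cacnb2* was lowest at 1.43 ± 0.68 CPM per kb. In the alpha2-delta family *Cacna2d3* (8.72 ± 2.86 CPM per kb) and *Cacna2d1* (7.66 ± 2.21 CPM per kb) were not separated by their spread either. *Cacna2d2*, at 2.23 ± 0.76 CPM per kb, and *Cacna2d4*, at 1.5 ± 0.63 CPM per kb, were lower and also overlapped each other. The order inside each family was the same when the longest annotated transcript was taken as the length, although *Cacna2d3* rose to 20.6 CPM per kb and *Cacnb2* to 3.77 CPM per kb, since much of their annotated exon sequence lies outside that transcript. The counts behind these levels ran from 42, for *Cacnb2* in ZT18 replicate C, to 4482, for *Cacnb4*.

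With library scaling only, *Cacnb3*, a form found in many neuronal N-type and L-type channels, had the clearest profile of the beta subunits. It had a trough around lights on and a peak after lights off. That trough was not kept when genes of like GC content were centred, as given below. Its levels in replicates A, B and C were 17.8, 16.8 and 21.8 CPM at ZT2 and 22.9, 26.9 and 24.2 CPM at ZT22. They were 53.9, 40.0 and 51.0 CPM at ZT6 and 39.3, 51.0 and 53.0 CPM at ZT10. At ZT14 the levels were 79.0, 75.3 and 67.6 CPM, and at ZT18 they were 60.6, 45.9 and 33.7 CPM. All 6 replicates of ZT22 and ZT2 lay below all 12 others, and all 3 of ZT14 lay above all others. The mean fell from 74.0 ± 5.80 CPM (SD, n = 3) at ZT14 to 18.8 ± 2.63 CPM (SD, n = 3) at ZT2, a ratio of 3.94. The change over the 6 timepoints passed edgeR's quasi-likelihood test with Benjamini-Hochberg adjustment over all genes tested, called the time test here (adjusted p = 1.16e-05), and passed it whichever of the 18 replicates was left out.

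*Cacnb1*, the beta subunit of the skeletal muscle channel that is also made in brain, followed a like course. It stood at 5.20, 13.2 and 17.8 CPM at ZT2 and at 13.4, 18.3 and 15.8 CPM at ZT22. The levels were 34.4, 25.7 and 11.7 CPM at ZT6 and 34.8, 47.1 and 42.0 CPM at ZT10. They reached 68.0, 48.4 and 44.6 CPM at ZT14 and were 45.3, 28.9 and 15.6 CPM at ZT18. The replicates of ZT14 and ZT10 lay above all those of ZT22 and ZT2, whereas ZT6 and ZT18 were scattered and overlapped most other timepoints. With library scaling only, the mean at ZT14 was 4.45 times that at ZT2, the widest ratio among the 8 genes, and the time test gave an adjusted p of 0.00367. In ZT6 replicate A, the library with the muscle markers, *Cacnb1* was the highest of its timepoint, and without it the adjusted p was 0.0026. The time test was not passed when genes of like GC content were centred, as given below (adjusted p = 0.22). Over the 18 replicates the log2 CPM of *Cacnb1* and *Cacnb3* correlated at r = 0.84, or 0.65 once the mean of each pair of timepoints was removed, as a description of replicates that share their scaling and base composition.

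*Cacnb4*, a neuronal beta subunit whose loss causes the lethargic phenotype in mice, ran the other way at most times and was the most abundant member after *Cacna2d1* in reads. Its levels were 93.2, 159 and 155 CPM at ZT22 and 143, 127 and 104 CPM at ZT2. They were 54.0, 51.4 and 47.7 CPM at ZT6 and 56.4, 65.1 and 53.6 CPM at ZT10. At ZT14 they stood at 124, 88.9 and 123 CPM and at ZT18 at 62.1, 85.2 and 79.1 CPM. The replicates of ZT22, ZT2 and ZT14 all lay above those of ZT6, ZT10 and ZT18, so that the gene was high around lights on and again after lights off. The ratio of the mean at ZT22 to that at ZT6 was 2.66, and the time test gave an adjusted p of 6.56e-05, which held whichever replicate was left out. An annotated transcript on the other strand, *A430018G15Rik*, shares 1433 bases, or 16%, of the *Cacnb4* exons. It had a median of 104 counts, and reads in the shared bases cannot be told apart without strand.

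*Cacnb2*, the main beta subunit of heart L-type channels, was the least abundant of its family and peaked in the middle of the day. It was at 27.9, 30.1 and 43.9 CPM at ZT6 and 19.8, 12.5 and 16.8 CPM at ZT10. The levels were 13.8, 16.9 and 16.3 CPM at ZT14 and 14.8, 13.4 and 2.56 CPM at ZT18. They were 14.8, 15.4 and 16.3 CPM at ZT22 and 22.8, 15.8 and 27.5 CPM at ZT2. The 3 replicates of ZT6 lay above all 15 others, and the lowest value came from ZT18 replicate C. The time test gave an adjusted p of 0.0358 and 0.00243 without ZT18 replicate C. The call was lost when ZT2 replicate A, ZT6 replicate B or C, or any 1 replicate of ZT14 or ZT22 was left out (adjusted p up to 0.13), and with the replicate letter as a block (adjusted p = 0.0653).

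**Figure D1:**
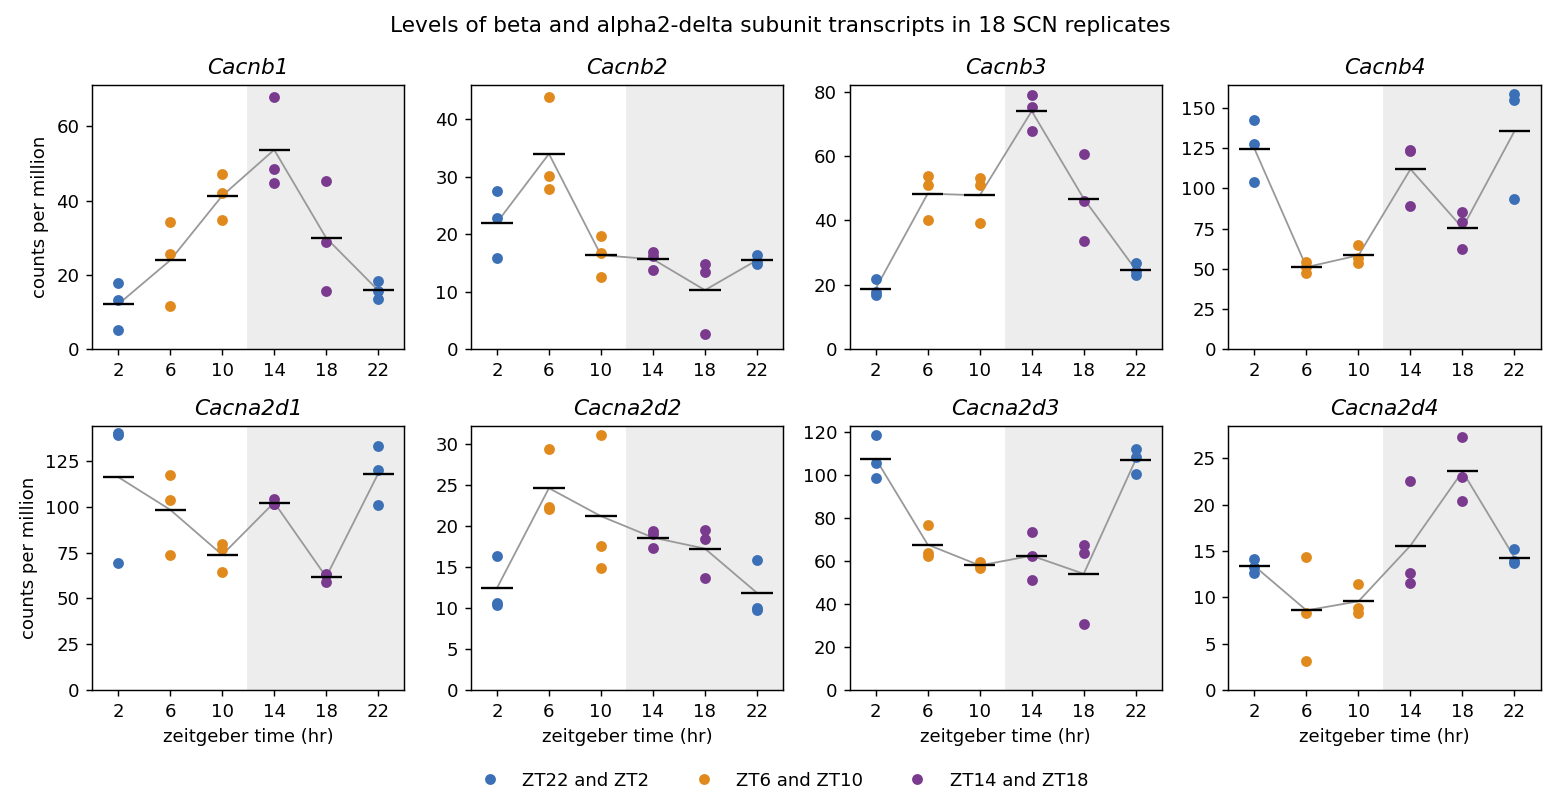
Level of each beta and alpha2-delta subunit gene in CPM (vertical axis, from 0) against zeitgeber time in hours (horizontal axis), with 1 point per replicate, coloured by pair of timepoints, black bars for the mean of 3 replicates and grey for the dark phase. Levels carry library scaling only. *Cacnb1* and *Cacnb3* are lowest at ZT22 and ZT2, where *Cacnb4* and *Cacna2d3* are highest, and *Cacnb2* is highest at ZT6.

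In the alpha2-delta family *Cacna2d3*, an alpha2-delta subunit of neurons with no known drug binding of the gabapentin kind, was high around lights on. It was at 100.4, 112 and 108 CPM at ZT22 and 98.6, 118 and 105 CPM at ZT2. The levels were 63.8, 62.0 and 76.7 CPM at ZT6 and 59.5, 56.4 and 57.6 CPM at ZT10. They were 73.5, 62.2 and 51.2 CPM at ZT14 and 63.5, 30.7 and 67.5 CPM at ZT18. All 6 replicates of ZT22 and ZT2 lay above all 12 others, among which those of ZT6 lay above those of ZT10 and the wider ranges of ZT14 and ZT18 overlapped both. The time test gave an adjusted p of 0.00213 and was passed whichever replicate was left out.

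*Cacna2d1*, the main target of gabapentin, was the member with the most reads and had a profile with high values on each side of the night. Its levels were 101, 133 and 120.0 CPM at ZT22 and 140.1, 139 and 69.4 CPM at ZT2. They were 73.8, 104 and 117 CPM at ZT6 and 77.1, 64.2 and 79.9 CPM at ZT10. At ZT14 they stood close together at 104, 101 and 101 CPM, and at ZT18 they were 58.9, 62.6 and 63.5 CPM. The ZT18 replicates were the lowest 3 of the 18, ZT2 replicate C stood far below the other two of its timepoint, and ZT6 and ZT10 overlapped. The mean at ZT22 was 1.91 times that at ZT18, and the time test gave an adjusted p of 0.013.

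*Cacna2d2*, the subunit mutated in the ducky mouse and abundant in Purkinje cells, was highest in the day. It was at 22.4, 22.2 and 29.4 CPM at ZT6 and 17.6, 14.9 and 31.2 CPM at ZT10. The levels were 19.4, 19.04 and 17.4 CPM at ZT14 and 18.5, 13.7 and 19.6 CPM at ZT18. They were 15.8, 9.73 and 10.00 CPM at ZT22 and 10.6, 16.4 and 10.3 CPM at ZT2. The replicates of ZT6 lay above all of ZT14, ZT18, ZT22 and ZT2, those of ZT14 lay above all of ZT22 and ZT2, and ZT10 was spread over the range of ZT22 to ZT6. The time test gave an adjusted p of 0.0451, which stayed under 0.05 in only 6 of 18 leave-one-out fits, those without ZT2 replicate B, ZT10 replicate B or C, ZT18 replicate B or C, or ZT22 replicate A, and rose to as much as 0.106 in the other 12. With the replicate letter as a block it was 0.0752.

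*Cacna2d4*, known from photoreceptors and scarce elsewhere, was the least abundant of the 8 genes in reads and peaked in the middle of the night. It was at 23.0, 27.3 and 20.4 CPM at ZT18 and 11.6, 12.6 and 22.6 CPM at ZT14. The levels were 13.7, 15.2 and 13.9 CPM at ZT22 and 12.7, 13.3 and 14.2 CPM at ZT2. They were 14.3, 8.34 and 3.12 CPM at ZT6 and 8.35, 8.90 and 11.5 CPM at ZT10. The replicates of ZT18 lay above those of every other timepoint except ZT14 replicate C. The time test gave an adjusted p of 0.0477, which stayed under 0.05 in only 3 of 18 leave-one-out fits, those without ZT6 replicate A or C or ZT14 replicate C, and reached 0.136 in the others. With the replicate letter as a block it was 0.0792. The gene *Lrtm2* lies inside *Cacna2d4* on the other strand, with a median of 1673 counts, and shares no exon base with it.

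With library scaling only, the makeup of each family differed between the pairs of timepoints. As a share of the summed CPM per kb of the 4 beta genes, *Cacnb4* made up 59.2% ± 7.03 (SD, n = 6) at ZT22 and ZT2. Its share was 22.6% ± 1.93 at ZT6 and ZT10 and 30.3% ± 7.62 at ZT14 and ZT18, and neither of these ranges reached that of ZT22 and ZT2. *Cacnb3* made up 22.3% ± 3.53 at ZT22 and ZT2, against 44.2% ± 5.11 at ZT6 and ZT10 and 42.1% ± 2.95 at ZT14 and ZT18. On this scale the most abundant beta transcript per kb was *Cacnb4* at ZT22 and ZT2 and *Cacnb3* at ZT6 and ZT10 in every replicate. When levels were centred over genes of like GC content, a setting chosen after the data were seen and described beside the differences between pairs, the *Cacnb3* share was 37.2% ± 3.96 at ZT22 and ZT2, 36.6% ± 4.26 at ZT6 and ZT10 and 35.9% ± 3.71 at ZT14 and ZT18. The *Cacnb4* share was then 41.3% ± 2.74, 30.1% ± 2.07 and 38.7% ± 6.49 at the same times, and its ranges at ZT22 and ZT2 and at ZT6 and ZT10 still did not overlap. *Cacnb4* led in 4 of the 6 replicates of ZT22 and ZT2 on that scale, and *Cacnb3* led in all 6 of ZT6 and ZT10. At ZT14 and ZT18 *Cacnb3* led in 5 of 6 replicates with library scaling only, whereas *Cacnb4* led in 4 of 6 with GC-centred levels. With library scaling only, the mean sum over the family went from 24.4 ± 3.61 CPM per kb at ZT22 and ZT2 to 27.2 ± 3.29 at ZT6 and ZT10, and it was highest at ZT14, at 44.0 ± 4.88 CPM per kb (n = 3).

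In the alpha2-delta family *Cacna2d1* made up 37.7% ± 5.93 for ZT22 and ZT2, 38.3% ± 4.03 for ZT6 and ZT10 and 37.3% ± 6.86 for ZT14 and ZT18 (SD, n = 6). *Cacna2d3* made up 50.1% ± 4.77 at ZT22 and ZT2, 40.3% ± 3.22 at ZT6 and ZT10 and 37.5% ± 7.00 at ZT14 and ZT18. All these shares rest on the counts. Reads recovered from the normalized table, described below, were lower than the counts at ZT6 and ZT10. The median log2 ratio was -0.57 for *Cacna2d3* and -0.09 for *Cacna2d1*, and shares were not computed from those reads. *Cacna2d2* went from 6.21% ± 1.53 at ZT22 and ZT2 to 15.9% ± 3.10 at ZT6 and ZT10, ranges that did not overlap, and from 8.15% ± 1.76 to 14.6% ± 3.24 with GC-centred levels. *Cacna2d4* made up 16.2% ± 5.0 at ZT18 and between 4.89% and 8.59% on average at the other 5 timepoints. The family sum was 24.7 ± 2.70 CPM per kb at ZT22 and ZT2, 18.0 ± 2.68 at ZT6 and ZT10 and 17.6 ± 2.52 at ZT14 and ZT18.

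**Figure D2:**
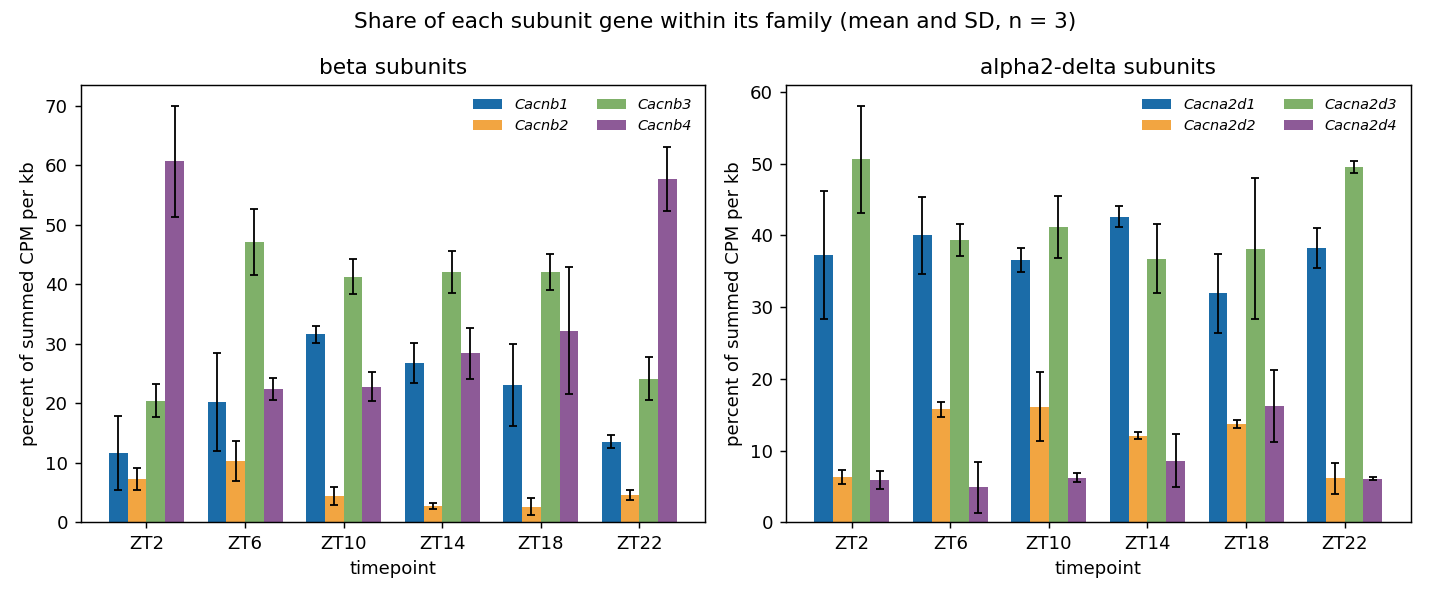
Share of each gene in the summed CPM per kb of its family (vertical axis, percent, from 0) at each timepoint, for the beta subunits on the left and the alpha2-delta subunits on the right; bars are means and lines the SD of 3 replicates. Levels carry library scaling only. *Cacnb4* makes up the largest beta share at ZT2 and ZT22 and *Cacnb3* at the other 4 timepoints, while *Cacna2d1* and *Cacna2d3* make up most of the other family throughout.

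All 8 genes passed the time test. The background was high, since 8343 of the 18941 genes tested (44.0%) passed it, and 3 of the 8 calls, those of *Cacnb2*, *Cacna2d2* and *Cacna2d4*, were the ones that single replicates decided. The study also asked for a sinusoidal 24 hr profile, and 7 of 8 genes met both the time test and JTK_CYCLE, an exact rank test for such a profile, against 29.8% of all genes tested. The JTK_CYCLE p was 0.000246 for *Cacnb3* and 0.0004 for *Cacnb1*, both with a fitted peak at ZT14. It was 0.000986 for *Cacnb2* with a peak at ZT6, 0.00672 for *Cacna2d4* with a peak at ZT18 and 0.013 for *Cacna2d3* with a peak at ZT22. For *Cacna2d2* (peak ZT10, p = 0.0319) and *Cacnb4* (peak ZT22, p = 0.042) the exact p came near the threshold. It passed 0.05 without any 1 replicate of ZT2, ZT22 replicate B or C, or ZT10 replicate C for both genes, without ZT18 replicate B for *Cacna2d2*, and without ZT6 replicate A or ZT10 replicate A for *Cacnb4*. *Cacna2d1* was the exception (exact p = 0.677), with a mean at ZT14 between those of ZT10 and ZT22 and the lowest mean at ZT18. When the rank test was adjusted across genes as well, 4 of the 8 met both criteria.

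The fitted peaks thus fell at 5 of the 6 timepoints. The share of variance among timepoint means that lay between the pairs of timepoints was 94.5% for *Cacna2d2*, 94.2% for *Cacna2d3*, 89.3% for *Cacnb4*, 87.7% for *Cacnb3* and 82.6% for *Cacna2d4*. It was 72.2% for *Cacnb1*, 50.4% for *Cacnb2* and 47.2% for *Cacna2d1*, beside a median of 90.3% over all genes past the time test.

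Differences inside a pair of timepoints do not carry an offset between pairs, and they were examined next. The study describes genes with 2 peaks a day, at ZT14 and ZT22, so ZT14 was set against ZT18 and ZT22 against ZT2. None of the 8 genes passed edgeR's adjusted threshold for ZT14 against ZT18, for which 0.570% of all genes tested did, and DESeq2 called 0 of the 8 where it called 4.46% of all genes; 3 of the 8 had an unadjusted p under 0.05. *Cacna2d1* was higher at ZT14 by a log2 difference of 0.73 ± 0.23 (SE), with an adjusted p of 0.148, and its 3 replicates at ZT14 all lay above the 3 at ZT18. *Cacnb3* differed by 0.66 ± 0.21 (adjusted p = 0.161), and *Cacnb4* by 0.57 ± 0.21 (adjusted p = 0.221), again with no overlap between the replicates. The difference was 0.84 ± 0.43 for *Cacnb1* (adjusted p = 0.409), 0.60 ± 0.42 for *Cacnb2* and -0.60 ± 0.40 for *Cacna2d4*, none of which had an unadjusted p under 0.05. With only the 6 replicates of these timepoints in the fit, the adjusted p of *Cacna2d1*, *Cacnb3* and *Cacnb4* lay between 0.13 and 0.317. In edgeR's fit to all replicates with genes of like GC content centred, as described below, 0 of 8 passed, against 0.634% of all genes tested. The difference was then 0.309 ± 0.195 for *Cacnb3*, 0.778 ± 0.199 for *Cacna2d1* and 0.624 ± 0.196 for *Cacnb4* (adjusted p = 0.51, 0.082 and 0.146).

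For ZT22 against ZT2, 0 of the 8 genes passed (0.0317% of all genes tested did), none had an unadjusted p under 0.05 and DESeq2 called 0, against 0.180% of all genes. For ZT6 against ZT10, 0 of 8 passed (0.0475% of all genes tested), DESeq2 called 0, against 1.33% of all genes, and *Cacnb2* alone had an unadjusted p under 0.05. It was higher at ZT6 by a log2 difference of 1.06 ± 0.43 (SE; adjusted p = 0.409), and its replicates did not overlap.

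The mean of ZT14 and ZT22 against that of ZT18 and ZT2 gave 0 of 8 calls by edgeR, with 0.148% of all genes tested called. *Cacnb3* (0.53 ± 0.15), *Cacna2d1* (0.38 ± 0.16) and *Cacnb4* (0.35 ± 0.15, log2 differences ± SE) had an unadjusted p under 0.05, with adjusted p of 0.156, 0.405 and 0.402. DESeq2 called *Cacnb3* alone, at an adjusted p of 0.0359, where it called 2.43% of all genes tested. For *Cacna2d1* the difference was 0.20 without ZT2 replicate C. When genes of like GC content were centred, as described below, edgeR called 0 of 8, against 0.137% of all genes tested. The difference was then 0.199 ± 0.139 for *Cacnb3*, 0.44 ± 0.14 for *Cacna2d1* and 0.404 ± 0.139 for *Cacnb4* (adjusted p = 0.674, 0.227 and 0.264). Markers of telencephalic excitatory neurons summed to between 122 and 240 CPM at ZT14 and between 30.5 and 99.4 CPM at ZT18, and those of neurons in general to between 4910 and 6600 CPM and between 3450 and 4830 CPM. The same sums ran from 64.5 to 251 CPM and from 6600 to 7490 CPM at ZT22. At ZT2 they ran from 46.2 to 86.7 CPM and from 5280 to 6340 CPM. Of these markers 1 of 7 and 2 of 5 were called higher at ZT14 than at ZT18, and 0 of either list at ZT22 than at ZT2. For ZT14 and ZT22 against ZT18 and ZT2, 1 of 7 and 2 of 5 were called higher. The part of these markers' cells in the differences of *Cacnb3*, *Cacnb4* and *Cacna2d1* was not tested.

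**Figure D3:**
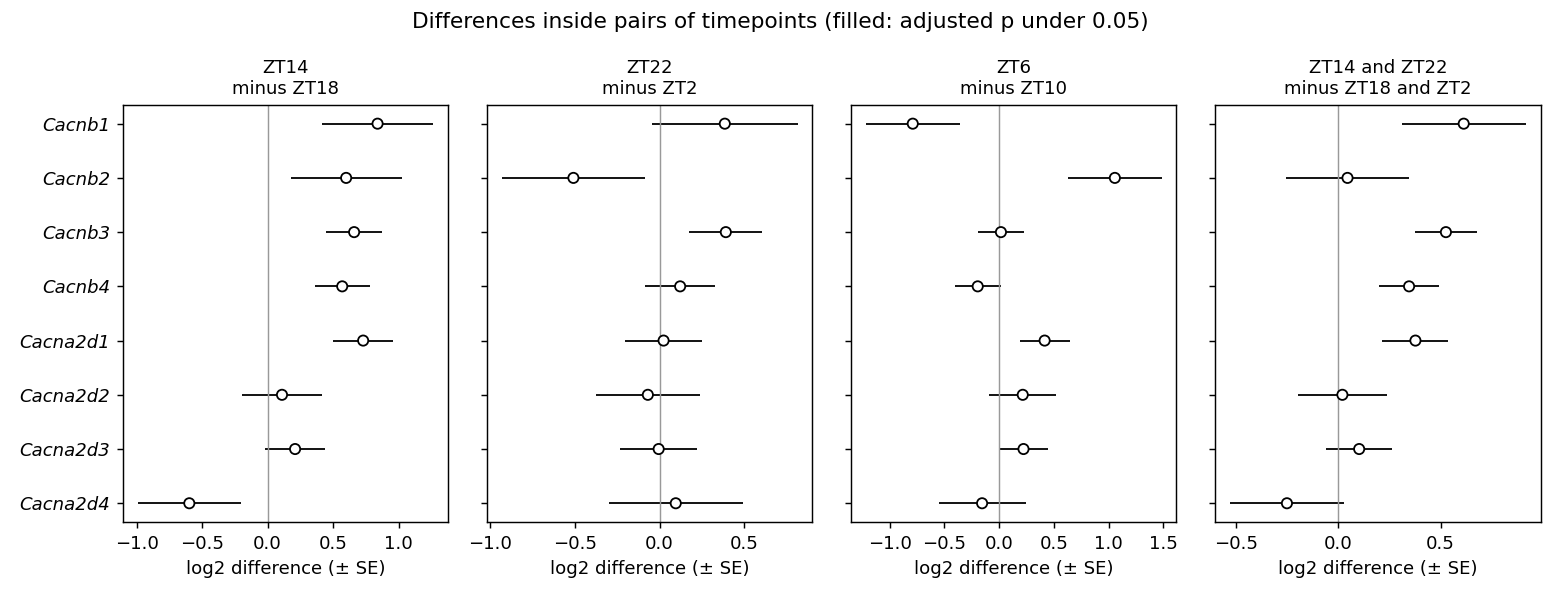
Log2 differences (horizontal axes) of the 8 genes inside pairs of timepoints, with lines for the SE from edgeR's fit to 18 replicates; filled points would mark an adjusted p under 0.05. All points are open, and *Cacna2d1*, *Cacnb3* and *Cacnb4* lie 0.57 to 0.73 above 0 for ZT14 against ZT18, *Cacnb1* and *Cacnb2* lie 0.84 and 0.60 above 0 with wider SE, and *Cacna2d4* lies at -0.60.

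More genes changed between pairs of timepoints. From ZT6 and ZT10 to ZT22 and ZT2, 6 of 8 genes changed, against 44.4% of all genes tested: *Cacnb4*, *Cacna2d3* and *Cacna2d1* were higher around lights on, and *Cacnb1*, *Cacnb3* and *Cacna2d2* were lower, although *Cacnb1* and *Cacnb3* turned when genes of like GC content were centred. The log2 difference was 1.25 ± 0.15 (SE) for *Cacnb4* (adjusted p = 2.32e-06) and 0.78 ± 0.16 for *Cacna2d3* (adjusted p = 0.000705). It was 0.46 ± 0.16 for *Cacna2d1* (adjusted p = 0.0275), a call that was lost when ZT2 replicate A or B, ZT6 replicate A, ZT10 replicate B, or ZT22 replicate B or C was left out, with differences from 0.38 to 0.45. The log2 difference was -1.18 ± 0.31 for *Cacnb1* (adjusted p = 0.00426), -1.16 ± 0.15 for *Cacnb3* (adjusted p = 7.31e-06) and -0.91 ± 0.22 for *Cacna2d2* (adjusted p = 0.00241). The 3 genes that were lower are those with the highest GC content of the 8.

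From ZT22 and ZT2 to ZT14 and ZT18, 5 of 8 genes changed, against 33.5% of all genes tested. *Cacnb1* was higher at ZT14 and ZT18 by a log2 difference of 1.54 ± 0.31 (SE; adjusted p = 0.000811) and *Cacnb3* by 1.45 ± 0.15 (adjusted p = 1.05e-06). *Cacna2d3* (-0.89 ± 0.16; adjusted p = 0.000344), *Cacna2d1* (-0.56 ± 0.16; adjusted p = 0.0119) and *Cacnb4* (-0.50 ± 0.15; adjusted p = 0.0137) were lower. From ZT6 and ZT10 to ZT14 and ZT18, 3 of 8 changed, against 32.4% of all genes tested. *Cacna2d4* was higher in the night pair by 1.08 ± 0.28 (adjusted p = 0.0073), *Cacnb4* was higher by 0.75 ± 0.15 (adjusted p = 0.000903), and *Cacnb2* had a difference of -0.89 ± 0.30 (adjusted p = 0.0309). The *Cacnb2* call was lost without ZT6 replicate C, ZT10 replicate A or C, or ZT14 replicate A or C, with differences from -0.78 to -0.91. The median over all genes tested was 0.18 for this comparison and within 0.07 of 0 for the other 6, so the *Cacna2d4* and *Cacnb4* differences stood 0.90 and 0.58 above it.

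Base composition and length both moved with these differences across the genome. Over 15627 genes the Spearman correlation of transcript GC content with the log2 difference was 0.40 for ZT14 and ZT18 against ZT22 and ZT2, and -0.28 for ZT22 and ZT2 against ZT6 and ZT10, as a description across genes, which are not replicates. It was 0.05 for ZT14 and ZT18 against ZT6 and ZT10. With length in place of GC content it was -0.101, 0.246 and 0.208 for the same comparisons in that order. Inside pairs the correlation with length was 0.255 for ZT14 against ZT18, -0.097 for ZT22 against ZT2 and 0.14 for ZT6 against ZT10. With GC content it was 0.136, 0.217 and -0.092 for the same comparisons in that order. For ZT14 and ZT22 against ZT18 and ZT2 it was 0.216 with GC content and 0.147 with length. The part of length in the members' differences was not tested. Genes above the upper GC quartile had a median log2 difference of -0.71 from ZT6 and ZT10 to ZT22 and ZT2, and those up to the lower quartile had 0.24. *Cacnb1*, *Cacnb3* and *Cacna2d2*, all above the upper quartile, moved in the direction of the former median. Of the 3 genes under the lower quartile, *Cacnb4* and *Cacna2d1* moved in the direction of the latter, and *Cacnb2*, at -0.35 ± 0.30, did not.

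The fit was repeated with an offset for each gene and library that centred genes of like GC content, a setting chosen after the data were seen. With it the difference from ZT6 and ZT10 to ZT22 and ZT2 was 0.08 ± 0.24 (SE) for *Cacnb1* (adjusted p = 0.829) and 0.54 ± 0.14 for *Cacnb3* (adjusted p = 0.00404), so that the direction turned for both. The difference of *Cacnb3* from ZT22 and ZT2 to ZT14 and ZT18 became -0.15 ± 0.14 (adjusted p = 0.443) and that of *Cacnb1* 0.25 ± 0.24 (adjusted p = 0.483). The JTK_CYCLE p was then 0.144 for *Cacnb3*, with the fitted peak at ZT22, and 0.18 for *Cacnb1*, with the peak at ZT14. *Cacnb4* kept a difference of 0.98 ± 0.14 from ZT6 and ZT10 to ZT22 and ZT2 (adjusted p = 1.56e-05) and of 0.78 ± 0.14 to ZT14 and ZT18 (adjusted p = 0.000375). *Cacna2d3* kept 0.49 ± 0.17 and -0.77 ± 0.17 (adjusted p = 0.0304 and 0.00239), *Cacna2d4* kept 0.86 ± 0.26 (adjusted p = 0.0179) and *Cacnb2* kept -0.82 ± 0.30 (adjusted p = 0.0444). The differences of *Cacna2d1* fell to 0.19 and -0.26, that of *Cacna2d2* was -0.61 ± 0.24 (adjusted p = 0.0537), and that of *Cacnb4* from ZT22 and ZT2 to ZT14 and ZT18 was -0.21 ± 0.14 (adjusted p = 0.282). In this fit 42.0% of all genes tested were called for ZT22 and ZT2 against ZT6 and ZT10, 29.1% for ZT14 and ZT18 against ZT22 and ZT2 and 31.6% for ZT14 and ZT18 against ZT6 and ZT10, where 3, 1 and 4 of the 8 genes were. The time test was passed by 5 of 8 genes, against 41.4% of all genes tested: *Cacnb2*, *Cacnb3*, *Cacnb4*, *Cacna2d1* and *Cacna2d3*, at adjusted p between 0.000167 and 0.0413. For *Cacnb1*, *Cacna2d2* and *Cacna2d4* the adjusted p was 0.22, 0.169 and 0.074. Genes of like length were not centred in this fit.

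**Figure D4:**
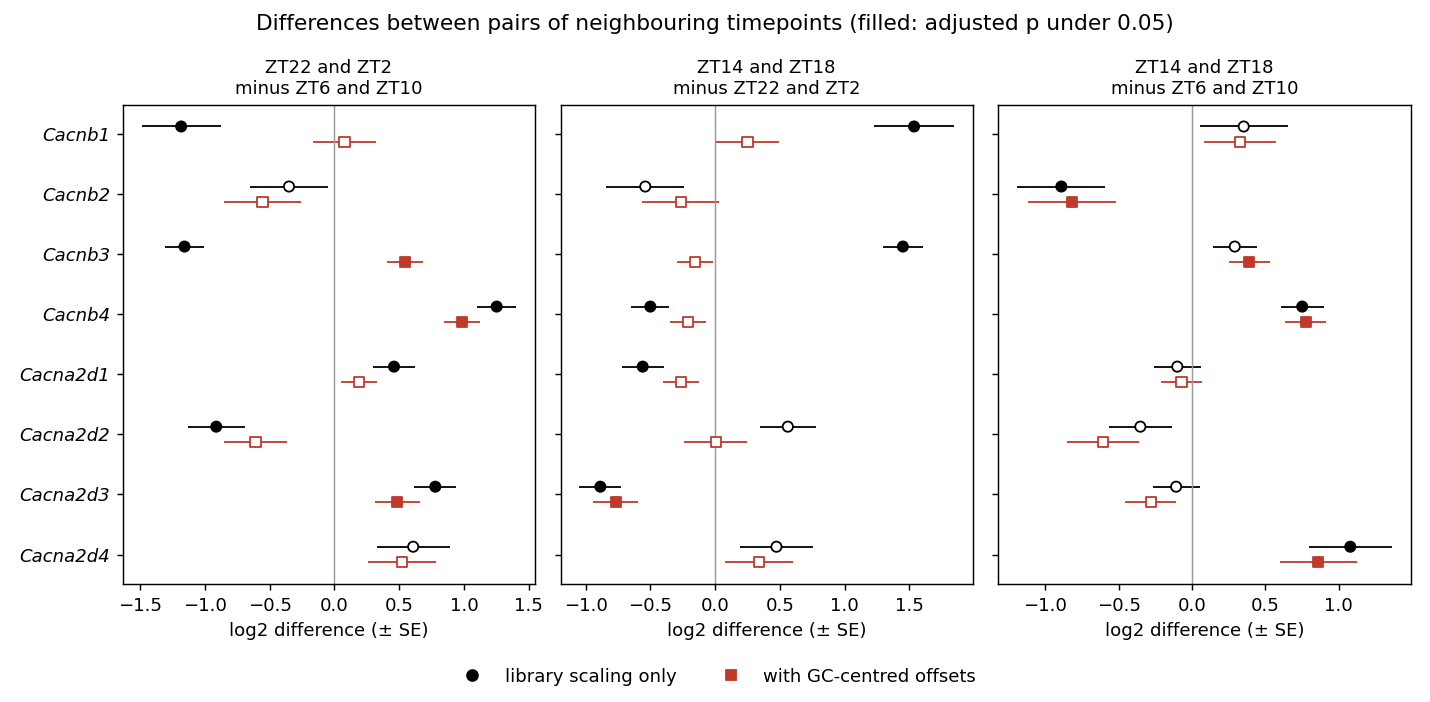
Log2 differences (horizontal axes) of the 8 genes between pairs of timepoints, with lines for the SE: black circles from the fit with library scaling only, red squares from the fit that also centred genes of like GC content, and filled symbols for an adjusted p under 0.05. *Cacnb1* and *Cacnb3* cross or approach 0 in the red fit in the left and middle panels, while *Cacnb4* keeps its place to the right of 0 in the left and right panels.

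Cell type markers also differed between the pairs. Astrocyte markers summed to between 5340 and 6870 CPM at ZT22 and ZT2, between 2140 and 2950 CPM at ZT6 and ZT10 and between 3100 and 4830 CPM at ZT14 and ZT18. Markers of neurons in general ran from 5280 to 7490 CPM, from 2420 to 3590 CPM and from 3450 to 6600 CPM at the same times, and SCN neuron markers from 2620 to 3980 CPM, from 4730 to 5920 CPM and from 1990 to 3140 CPM. The order of *Cacnb4* and *Cacna2d3* between ZT22 and ZT2 and ZT6 and ZT10 was that of the astrocyte and general neuron sums. In that comparison, with library scaling only, the order of *Cacnb3* and *Cacna2d2* was that of the SCN neuron sum. The direction of *Cacnb3* turned when genes of like GC content were centred. At ZT14 and ZT18 the means of *Cacnb3* and *Cacna2d2*, 60.34 and 17.94 CPM, lay above those of ZT22 and ZT2, 21.72 and 12.15 CPM. The SCN neuron sum had its lowest value at ZT14. *Cacna2d3*, at a mean of 58.13 CPM, was lowest at ZT14 and ZT18, where the astrocyte sum was not. Single markers did not all follow their sum. At ZT22 and ZT2, 5 of 6 astrocyte markers were called higher and 0 lower. Of 5 general neuron markers 3 were called higher and 1 lower, and *Snap25*, at a mean of 3160 CPM, was the largest part of that sum. Of 10 SCN neuron markers 1 was called higher and 9 lower. Of all genes tested, 21.9% were called higher and 22.4% lower. The part of these cells in the members' differences was not tested.

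The deposited normalized table gave a check of the reads themselves. Whole reads could be recovered from it, and for the 8 genes they were within 1 read of the counts at ZT2, ZT14, ZT18 and ZT22, with 1 of 96 values differing. At ZT6 and ZT10 they were lower, by a median log2 ratio of -0.57 for *Cacna2d3*, -0.24 for *Cacna2d4* and between -0.04 and -0.23 for the other 6. This was not particular to the 8 genes. Over the 26118 genes that both tables hold, 36.8% to 47.1% of values in a replicate were identical at ZT6 and ZT10. At the other timepoints 94.7% to 96.3% were. With the recovered reads the *Cacna2d3* difference from ZT6 and ZT10 to ZT22 and ZT2 was 1.14 ± 0.16 (SE; adjusted p = 1.46e-05), and that of *Cacna2d1* was 0.31 ± 0.16 (adjusted p = 0.123), no longer past the threshold.

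The partners of these subunits were examined by 3 lists. Of the 10 alpha-1 subunits, the pores of the channels, 4 passed the time test (44.0% of all genes tested did) and 2 cycled. The 2 with the smallest p were *Cacna1g*, a T-type pore, with means of 67.4 CPM at ZT6 and 9.75 CPM at ZT22 (adjusted p = 7.37e-07), and *Cacna1e*, the R-type pore, with 69.8 CPM at ZT14 and 20.0 CPM at ZT10 (adjusted p = 0.00048). The highest per length were *Cacna1b*, the N-type pore, at 4.23 CPM per kb, which gave an adjusted p of 0.316 over time, and *Cacna1g* at 3.21 CPM per kb. The *Cacna1e* means at ZT22 and ZT2, 55.4 and 54.5 CPM, and at ZT6, 24.3 CPM, put it in the same order as *Cacnb4* between those pairs.

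Of the 8 gamma subunit genes, several of which are better known as AMPA receptor partners, 5 passed the time test and 3 cycled. *Cacng3* had means of 117 CPM at ZT22 and 19.8 CPM at ZT6 (adjusted p = 9.82e-06) and *Cacng2* of 70 CPM at ZT6 and 31.4 CPM at ZT2 (adjusted p = 7.9e-05). *Cacng3* and *Cacng5* were the highest per length, at 23.4 and 18.9 CPM per kb. Of the 18 regulators, which bind or tune the channels, 10 passed and 9 cycled. *Calm3*, a calmodulin gene, had means of 812 CPM at ZT6 and 230 CPM at ZT2 (adjusted p = 1.62e-07), and *Cbarp*, which binds beta subunits, of 402 CPM at ZT6 and 134 CPM at ZT22 (adjusted p = 7.61e-07). *Calm2* was the highest per length, at 2100 CPM per kb.

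Between ZT22 and ZT2 and ZT6 and ZT10, 1 alpha-1 subunit was called higher at ZT22 and ZT2 and 2 lower, 4 gamma subunits higher and 1 lower, and 6 regulators higher and 4 lower. Of all genes tested, 21.9% were called higher and 22.4% lower in this comparison, so calls in both directions are what the background holds.

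The genes most like each member were sought among 15759 genes averaging 10 counts or more, by Pearson's r of log2 CPM over the 18 replicates, which share their scaling and the offsets between pairs, as a description. *Cacnb3* was most like *Hgs*, *Ubtf* and *Agap3* (r of 0.96 each), and *Cacnb1* most like *Gltp* (0.94), *Cyb5r3* and *Abcf1* (0.92 each). *Cacnb4* was most like *Mef2c* and *Chn1* (0.96 each) and *Gria3* (0.95), an AMPA receptor subunit. *Cacnb2* was most like *Gem* (0.93), which encodes a small GTPase that binds beta subunits and is in the list of regulators, and like *Sike1* and *Ifrd1* (0.92 and 0.91). *Gem* averaged 4.87 CPM and did not pass the time test (adjusted p = 0.0867). In the alpha2-delta family r was lower, from 0.87 to 0.90: *Cacna2d1* was most like *Eif3b*, *Kifap3* and *Camk1d*, *Cacna2d2* like *Fam120a*, *Fubp3* and *Scaf4*, *Cacna2d3* like *Dusp10*, *Ptafr* and *Smap2*, and *Cacna2d4* like *Plekhb1*, *Mir2139* and *Tspan12*. After the mean of each pair was removed, r was 0.90 for *Gem* with *Cacnb2* and 0.88 for *Mef2c* with *Cacnb4*. Over all the genes named here it then ran from 0.65, for *Dusp10* with *Cacna2d3*, to 0.93, for *Abcf1* with *Cacnb1*.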

How the data were processed

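RNA from laser-captured SCN was amplified with a SMARTer protocol, which does not mark strand, and sequenced as 100 bp pairs. The deposited count table holds raw gene counts, which the authors made with GSNAP and HTSeq 0.5.4p1 against mm10 (GRCm38), with 3 lanes combined per replicate. The deposited normalized table holds a signal, the authors' counts divided by size factors, from which whole reads were recovered (100.0% of values within 0.1 of a whole read). Its 31077 genes were used for an alternative only. Genes were named and measured from GENCODE M21. The 8 members and all lists were chosen with earlier results of these data known.

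Counts were tested with edgeR 4.0.16 (quasi-likelihood, TMM, Benjamini-Hochberg, threshold 0.05) in 1 fit over the 18 replicates, with DESeq2 1.42.0 as an alternative; JTK_CYCLE was rewritten in R 4.3.3 (24 hr period, 6 lags, 2-sided, Bonferroni over lags). The scripts were tested on simulated data. Named partners were the 2 genes of each list with the smallest p and the 2 highest per length, and the 3 genes most like each member; 1 such gene is not reported here. Cycling required both tests. The replicates were separate pools, and none of the pairs agreed within sampling noise. Alternatives were other scalings, filters, a replicate block, recovered reads, single replicates left out and a GC-centred offset.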

Additional observations from a re-analysis of the deposited data

How the results depend on the processing

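The 8 calls of the time test became 7 with DESeq2 size factors, 6 with upper-quartile scaling and 5 with GC-centred offsets, and the count ran from 5 to 7 when 1 replicate was left out. The 7 cycling genes became 4 with upper-quartile scaling, 4 with adjustment of the JTK_CYCLE p over all genes and 2 with GC-centred offsets (*Cacnb2* and *Cacna2d3*), and from 3 to 6 without 1 replicate. GC-centred offsets gave 3 calls in place of 6 for ZT22 and ZT2 against ZT6 and ZT10, of which *Cacnb3* in the opposite direction, and 1 in place of 5 for ZT14 and ZT18 against ZT22 and ZT2, and turned *Cacnb1* (0.078) and *Cacnb3* (0.54) in the former and *Cacnb3* (-0.15) in the latter. DESeq2 called 1 gene, *Cacnb3*, for ZT14 and ZT22 against ZT18 and ZT2, where edgeR called 0. Over all genes tested the calls behind the backgrounds inside pairs varied widely: 108 (0 to 844 over all settings) for ZT14 against ZT18, 6 (0 to 34) for ZT22 against ZT2, 9 (0 to 252) for ZT6 against ZT10 and 28 (0 to 460) for ZT14 and ZT22 against ZT18 and ZT2, each highest with DESeq2. Leaving out 1 replicate gave 2 to 4 calls for ZT14 and ZT18 against ZT6 and ZT10, and over the 18 such fits of 21 named differences, 367 values kept their direction and side of the threshold while 11 lost the call. The level per kb moved by more than its SD for 6 of 8 genes with the longest transcript as length; the exon union includes sequence that these transcripts lack.

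With the replicate letter as a replicate block, 5 genes passed the time test and 4 cycled. The letters did not pair the samples: over 45 pairs of libraries of the same letter the correlation of deviations from the timepoint means had a median of -0.003 (different letters -0.001), and 6 of 18 replicates were most like their own letter. *Cacnb2* and *Cacna2d4* rested on the fewest counts, down to 42 and 66 in a library, and the part of depth in their lost calls was not tested.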
